A study of Mus musculus with 12 samples.

Results

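The genes described here are those of potassium, sodium and calcium channels, chosen by name in mouse medulloblastoma, a tumour of the cerebellum, at end point. Of 15672 genes in the table, 119 carry a name that begins with Kcn, the numbered Scn genes that end in a or b, or the Cacna1, Cacna2, Cacnb and Cacng names. Of these, 103 had log2 CPM (CPM are read counts scaled to the size of the library) above 0 in at least 3 of the 12 libraries, as did 14147 genes in all. The 103 were 72 of 84 potassium channel genes, 9 of 12 sodium channel genes and 22 of 23 calcium channel genes, and all are protein coding in GENCODE M21. The names were the whole rule, and they take in potassium channels that are not gated by voltage (inward rectifiers, K2P leak channels and channels opened by calcium or sodium) as well as auxiliary subunits. The 16 genes under the filter included Cacna1s, Kcna7, Kcne1, Kcne3, Kcnf1, Kcnh4, Kcnj4, Kcnj14, Kcnj15, Kcnk4, Kcnmb1, Kcnmb2, Kcnv1, Scn9a and Scn11a. Kcnf1 reached the most reads of them in any library, an estimated 68.

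Tumours called SG carried fSMO-M2, a conditional allele of an activated form of Smoothened (the Hedgehog signal transducer), together with hGFAPcre. The latter drives Cre recombinase from the human GFAP promoter, active in neural stem and progenitor cells. Cells of the tumour that do not descend from such cells are not targeted. Tumours called YSGr carried fYap1, a floxed allele of the transcriptional coactivator Yap1, in addition to fSMO-M2 and hGFAPcre. The labels call the YSGr mice rescued without saying what was rescued, and give no age. There were 3 libraries each of SG males (numbered 1 to 3), SG females (4 to 6), YSGr males (7 to 9) and YSGr females (10 to 12), all of total RNA from tumour tissue. Nothing in the labels says that the libraries came from separate animals, so the p-values reflect only how far these samples vary, and that variation may be technical. Because tumour tissue was sequenced in bulk, fewer cells of a type and less RNA per cell cannot be told apart.

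Voltage-gated channels open when the membrane potential changes and carry the currents of the action potential. Sodium channels drive its rising phase, potassium channels end it and set how fast it can repeat, and calcium channels turn it into calcium entry and transmitter release. In the cerebellum, granule neurons, Purkinje cells and interneurons acquire distinct sets of these channels as they mature, while dividing granule neuron progenitors, the cells from which Hedgehog medulloblastoma arises, express fewer of them. Inward rectifier potassium channels also set the resting potential of neurons and astrocytes.

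Libraries held 8854756 to 9478611 estimated reads. The members' reads over the 12 libraries ran from 105 (Kcne2) through a median of 1795 to 37067 (Kcnj10), so the least abundant members were measured with low precision. Markers of granule neuron progenitors, the defining cells of this tumour, averaged 7.67 to 8.58 log2 CPM over the libraries. As a check of the labels, Yap1 lay at 4.29 to 4.80 log2 CPM in SG and at -0.02 to 1.82 in YSGr. SG male 2 was the lowest SG male library for 63 of the 103 members, against SG male 1 as the highest for 53. YSGr male 8 was the highest YSGr male library for 60 of them, and among YSGr females library 11 was the highest for 62 and library 12 the lowest for 56. Counts that rest on these libraries are therefore also given without them. Between libraries of a group, the median range of a member was 0.77 (log2) in SG males, 0.35 in SG females, 0.73 in YSGr males and 0.98 in YSGr females, and over all genes tested 0.54, 0.20, 0.43 and 0.46. Channel genes thus varied more between libraries of a group than the typical gene did in these data.

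Levels were compared between genes as CPM per kilobase of exon. In SG, the highest of the potassium channel genes was Kcnj10, an inward rectifier of glia, at 59.4 CPM per kilobase, followed by Kcnip3 (a calcium-binding partner of Kv4 channels) at 41.2 and the K2P channel Kcnk1 at 39.4. Of the sodium channel genes, the pore gene Scn8a stood at 5.55 CPM per kilobase and the beta subunit gene Scn3b at 4.92. The most abundant calcium channel genes were 3 gamma genes, of a family with several partners of AMPA-type glutamate receptors, with Cacng7 at 101, Cacng4 at 44.7 and Cacng2 at 39.8, followed by Cacna2d1 at 20.6. In YSGr, Scn8a stood at 8.64 CPM per kilobase and Cacng4 at 25.7.

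The first comparison asked how channel genes differed between YSGr and SG tumours, averaged over the sexes. Most channel genes that passed the test were higher in YSGr, and these included all 3 measured GIRK genes (G-protein gated inward rectifiers), 5 of 9 sodium channel genes and 4 of the 8 pore genes of voltage-gated calcium channels. By limma with Benjamini-Hochberg adjustment over all 14147 genes, 26 of the 103 passed an adjusted p of 0.05 (25.2%), against 11.4% of all genes tested, and 41 had an unadjusted p under 0.05 (39.8%, against 28.6%). Of the 26, 23 rose (6.16% of all genes did) and 3 fell (5.27% of all genes did). The median log2 fold change of the 103 was 0.36, against -0.005 for all genes, and 76 of the 103 lay above 0, against 49.4% of all genes. That median was 0.23 without YSGr female 11, 0.23 without SG male 2 and YSGr male 8 together, and 0.18 with libraries weighted by their fit. The count rests in part on single libraries: leaving out SG female 6 gave 13 (12.6%, against 6.37% of all genes in the same fit), SG female 5 gave 15 (14.6%, against 6.51%), YSGr female 10 gave 17 (16.5%, against 7.29%), SG male 2 gave 19 (18.4%, against 13.1%) and YSGr female 12 gave 34 (33.0%, against 14.8%). The 7 calls lost without SG male 2 were Scn1a (adjusted p = 0.0502), Kcnk10 (0.058), Scn2a (0.062), Kcna1 (0.066), Kcnt1 (0.071), Cacna1a (0.086) and Kcnab1 (0.086). Of the 26 calls, 13 held whichever library was left out (among them Cacna1c, Cacna1i, Cacnb4, Cacng4, Cacng5, Kcnc1, Kcnip4, Kcnj3, Kcnj6, Kcnj9 and Scn2b).

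**Figure D1:**
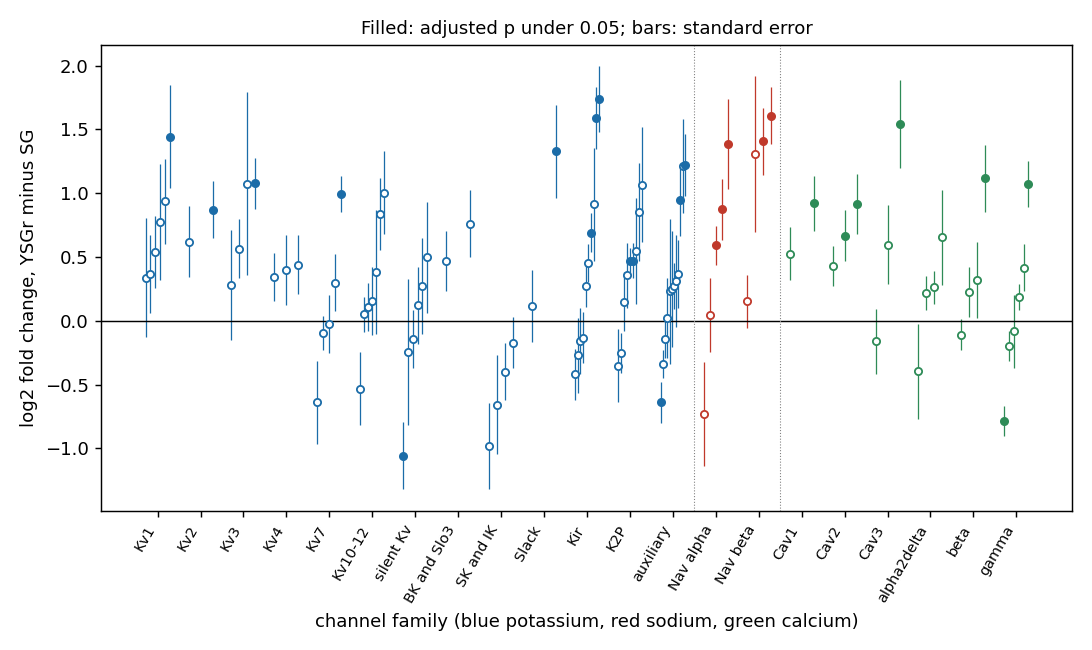
Log2 fold change of YSGr against SG, averaged over the sexes, for each of the 103 channel genes, grouped by family along the horizontal axis (potassium blue, sodium red, calcium green), with the standard error as a bar. Filled points are the 26 genes with an adjusted p under 0.05; the 4 genes of the SK and IK family all lie below 0, and the GIRK genes of the Kir family lie at 0.69, 1.59 and 1.74.

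Markers of maturing neurons moved in the same libraries. Of 18 markers of differentiating granule neurons, 8 rose and 0 fell in the same averaged fit, and their mean level was 6.15 to 6.53 log2 CPM in the SG libraries, against 7.39, 7.04 and 7.56 for YSGr males and 6.41, 7.68 and 6.30 for YSGr females. Of 13 markers of Purkinje cells and cerebellar interneurons 0 rose and 1 fell, and their mean was 4.17 to 4.88 in SG, against 5.95, 5.06 and 5.58 for YSGr males and 3.51, 5.65 and 3.17 for YSGr females. Of 14 granule neuron progenitor markers 0 rose and 5 fell, and of 14 astrocyte and stem cell markers 1 rose and 5 fell. YSGr male 8 stood apart in oligodendrocyte markers, at 10143.5 summed CPM against 1257 to 3148 in the other 11 libraries, and Mbp (myelin basic protein) was at 12.43 log2 CPM there against 7.76 to 10.44. Gad2, of inhibitory neurons, was at 7.25 in that library against 0.82 to 5.23 in the others. From the same Purkinje cell and interneuron list, Pcp2, Calb1 and Car8 were at 3.26, 4.77 and 4.45 there. Those lay below every SG library (from 4.97, 5.32 and 5.14), whereas Itpr1 (6.82) lay within the SG range. Of the granule neuron list, Cbln1 was at 7.39 there, against 7.68 or more in SG. In YSGr male 8 the mean of the sodium channel genes lay 1.95 above the SG mean, against 0.96 in each of the other YSGr males. The part of these cell types in the channel results was not tested. Summed over the list, granule neuron markers gave 2264 to 2812 CPM in SG and 3322 to 5109 in YSGr, and Purkinje cell and interneuron markers 500.4 to 837.1 for SG males, 542.4 to 617.4 for SG females, 827.8 to 1806 for YSGr males, and 397.5 to 1477 for YSGr females. None of the markers of either neuron list was at 0 reads in all libraries.

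Promoters were examined because Yap1 acts on DNA through TEAD factors and Smoothened through Gli factors, and because many channel genes are repressed in other cells by Rest. RefSeq promoters (GRCm38.p6, the 250 bases before a start) were given for 74 of the 103 members (109 promoters) and for 19 of the 26 that passed (31 promoters). The TEAD core GGAATG, read on both strands, was in 19 of the members' promoters (17.4%) and 7 of those of the 26 (22.6%). It was in 10.7% of those of all genes tested and 12.6% of all promoters. The Gli site TGGGTGGTC was in 1 of the members' promoters (0.917%) and in 0.169% of those of all genes tested. For the outer parts of the Rest site, TTCAGCACC was in 1 (0.917%, against 0.352%) and GGACAGC in 8 (7.34%, against 6.17%). The sets also differed in composition. Median GC content was 58.8% for the members, 53.2% for the 26 and 59.6% for all genes tested, with a median of 8, 6 and 15 CpG dinucleotides. Sequences are shown for 3 genes described later that hold the TEAD core, with the core in capitals, as a description of these windows and not as sites in use. The windows of Kcnj6 and Scn2a lie before internal starts of those genes, and another RefSeq start of each has none of the 4 motifs before it. For Kcnj6 (minus strand) the core begins 114 bases before the start, for Scn2a (plus strand) 172 and for Kcns1 (minus strand) 207, where it reads CATTCC because it lies on the opposite strand.
Kcnj6, chr16:94856691-94856940: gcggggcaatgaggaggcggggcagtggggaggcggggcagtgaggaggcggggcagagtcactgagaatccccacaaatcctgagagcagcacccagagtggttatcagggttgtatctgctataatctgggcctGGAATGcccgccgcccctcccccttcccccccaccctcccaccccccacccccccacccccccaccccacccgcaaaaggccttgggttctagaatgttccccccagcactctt
Scn2a, chr2:65668436-65668685: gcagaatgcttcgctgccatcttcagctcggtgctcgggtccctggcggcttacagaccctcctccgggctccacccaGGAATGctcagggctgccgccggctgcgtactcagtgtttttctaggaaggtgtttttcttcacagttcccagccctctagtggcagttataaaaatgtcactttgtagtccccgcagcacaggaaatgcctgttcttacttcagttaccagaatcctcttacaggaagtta
Kcns1, chr2:164171114-164171363: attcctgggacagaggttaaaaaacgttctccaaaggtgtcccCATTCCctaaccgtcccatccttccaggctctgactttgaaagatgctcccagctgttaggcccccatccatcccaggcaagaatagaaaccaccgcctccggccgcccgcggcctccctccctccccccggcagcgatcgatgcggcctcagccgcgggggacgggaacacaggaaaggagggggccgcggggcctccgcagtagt

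Among the 72 potassium channel genes, 12 rose and 2 fell, and the median log2 fold change was 0.34 (0.22 without YSGr male 8 and 0.18 without YSGr female 11). The 14 calls were 6 without SG female 6, where 6.37% of all genes passed, and 8 without SG female 5 or YSGr female 10 (6.51% and 7.29%). They were 10 without SG male 2 (13.1%). The largest rises were those of Kcnj9 and Kcnj6, which with Kcnj3 are the GIRK genes, whose products are opened by G-protein coupled receptors and hold neurons near rest. Kcnj9 (chr1:172320501-172329318) stood at 1.68 to 2.71 log2 CPM in SG (median 2.17), at 4.61, 4.18 and 4.38 in YSGr males and at 3.16, 4.22 and 2.85 in YSGr females. All YSGr libraries exceeded all SG libraries, with the YSGr males and female 11 highest, and the gene rose by 1.74 on the log2 scale (SE 0.26, adjusted p = 0.0013 by limma). Kcnj6 (chr16:94748636-94997701) stood at 2.28 to 3.11 in SG (median 2.92), at 3.84, 4.14 and 4.94 in YSGr males and at 5.24, 4.42 and 3.93 in YSGr females, a rise of 1.59 (SE 0.25, adjusted p = 0.0016). Kcnj3 (chr2:55435970-55598145) stood at 4.76 to 5.47 in SG (median 5.29) and at 5.64 to 6.34 in YSGr (median 5.90), a rise of 0.69 (SE 0.15, adjusted p = 0.013). For Kcnj6 and Kcnj3, too, the genotypes did not overlap, and in both the YSGr males and females overlapped. The all-libraries separation seen in these 3 genes held in 8 of the 103 members (all 6 YSGr above all 6 SG; 2.93% of all genes) and in the opposite direction in 1 (2.96%).

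The other 7 inward rectifiers did not pass. Kcnj10, which buffers potassium in astrocytes, was at 7.51 to 8.69 in SG, at 8.87, 9.15 and 8.46 in YSGr males and at 6.82, 8.35 and 7.13 in YSGr females. YSGr females 10 and 12 lay below every SG library and YSGr males 7 and 8 above all of them. Its averaged log2 fold change was -0.16 (SE 0.26). The same 2 female libraries were lowest for the astrocyte marker list, with means of 6.57 and 6.28 against 7.03 to 7.31 in SG, and the part of that list in the Kcnj10 level was not tested. Kcnj11, a pore subunit of the ATP-sensitive channel, had a log2 fold change of 0.45 (adjusted p = 0.067), and Kcnj8, its vascular relative, of -0.42 (adjusted p = 0.19).

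Of 27 pore genes of voltage-gated potassium channels, 4 rose, 0 fell and 23 lay above 0. Of the Kv7 genes, Kcnq3 had a log2 fold change of 0.30 (adjusted p = 0.40) and Kcnq5 of -0.02 (adjusted p = 0.96). Kcnc1 (chr7:46396497-46438704), a Kv3 channel of fast-spiking neurons, stood at 5.49 to 6.26 in SG, at 7.39, 7.80 and 7.41 in YSGr males and at 6.54, 7.31 and 5.99 in YSGr females. YSGr female 12 fell within the SG range, and the rise was 1.08 (SE 0.20, adjusted p = 0.0049). Kcnb2 (chr1:15287254-15723750), a delayed rectifier of the Kv2 family, was at 3.48 to 4.85 in SG and 5.03 to 5.68 in YSGr, a rise of 0.87 (adjusted p = 0.025) that missed the threshold without 4 of the libraries (largest adjusted p 0.069, without SG female 6).

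Kcna1 (chr6:126640397-126646384), an axonal Kv1 channel, showed the libraries apart from one another. It stood at 3.69, 1.68 and 3.18 in SG males, 3.11, 3.03 and 2.61 in SG females, 4.74, 5.45 and 4.88 in YSGr males and 3.14, 5.09 and 2.66 in YSGr females. YSGr females 10 and 12 lay within the SG range while the other YSGr libraries lay above it. The averaged rise was 1.44 (SE 0.40, adjusted p = 0.036), and it missed the threshold when any of 7 libraries was left out (largest adjusted p 0.093, without SG female 6). Its relative Kcna2 had an averaged log2 fold change of 0.94 (adjusted p = 0.087). None of the Kv4 genes or the Kv10 to Kv12 genes passed; Kcnd2 and Kcnd3, the main A-type channels, had log2 fold changes of 0.40 and 0.44, and Kcnh7 of 0.11.

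Of 8 genes of the calcium- and sodium-activated channel families, Kcnt1 passed. Kcnt1 (chr2:25863734-25918273), the sodium-activated Slack channel, was at 2.76 to 3.97 in SG, at 6.00, 6.08 and 4.88 in YSGr males and at 3.58, 5.21 and 2.80 in YSGr females. It rose by 1.33 (SE 0.37, adjusted p = 0.034) and missed the threshold when any of 7 libraries was left out (largest adjusted p 0.086, without SG female 6). The large-conductance channel Kcnma1 had a log2 fold change of 0.47 (adjusted p = 0.21). All 4 SK and IK genes, small and intermediate conductance channels of the afterhyperpolarization and of immune cells, lay below 0, from -0.17 (Kcnn2) to -0.98 (Kcnn4, adjusted p = 0.078), and 0 passed. Kcnn4 was at 0.53, 2.38 and 1.56 in SG males, 2.43, 2.53 and 2.16 in SG females, 0.28, 1.67 and 0.32 in YSGr males and 0.84, 0.91 and 1.68 in YSGr females. The YSGr females lay below the SG females, and in males the genotypes overlapped.

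Of 9 K2P genes, whose products carry leak currents, 2 rose. Kcnk1 (chr8:125995170-126030685) was at 6.35 to 6.50 in SG, at 6.52, 6.51 and 7.06 in YSGr males and at 7.17, 7.31 and 7.00 in YSGr females. YSGr males 7 and 8 lay at the upper edge of the SG range, and the rise was 0.46 (SE 0.11, adjusted p = 0.016; 0.052 without SG female 6). Kcnk10 was at 3.57 to 3.99 in SG and 3.94 to 4.60 in YSGr, a rise of 0.47 (adjusted p = 0.043) that missed the threshold when any of 10 libraries was left out (largest adjusted p 0.12, without SG female 6).

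Of 12 auxiliary potassium channel genes, 2 rose and 1 fell. Kcnip4 (chr5:48389502-49524907), a calcium-binding subunit of Kv4 channels, was at 2.07 to 3.02 in SG, at 4.57, 4.54 and 3.98 in YSGr males and at 2.73, 3.99 and 3.25 in YSGr females, a rise of 1.22 (SE 0.24, adjusted p = 0.0064). Kcnab1, a beta subunit of Kv1 channels, rose by 0.95 (adjusted p = 0.047), from 2.61 to 3.65 in SG to 3.02 to 4.91 in YSGr, and missed the threshold when any of 9 libraries was left out (largest adjusted p 0.11, without SG female 6). Kcne1l (chrX:142304752-142306294), a single-pass modulatory subunit, was at 4.50 to 5.35 in SG and 3.81 to 4.84 in YSGr. It fell by 0.64 (SE 0.16, adjusted p = 0.024; 0.070 without SG female 6, and also over 0.05 without SG female 5 or YSGr female 10). Of the 6 modifier genes, whose products work only together with Kv2 subunits, Kcns1 (chr2:164163619-164171113) fell by 1.06 (SE 0.26, adjusted p = 0.021; 0.064 without SG female 6, and also over 0.05 without SG female 5). Kcns1 was low throughout, at 1.89, 2.15 and 1.07 in SG males, 1.95, 2.26 and 2.39 in SG females, 1.64, 1.72 and 0.54 in YSGr males and 0.66, 0.55 and 0.27 in YSGr females, so that the groups overlapped in males and not in females.

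**Figure D2:**
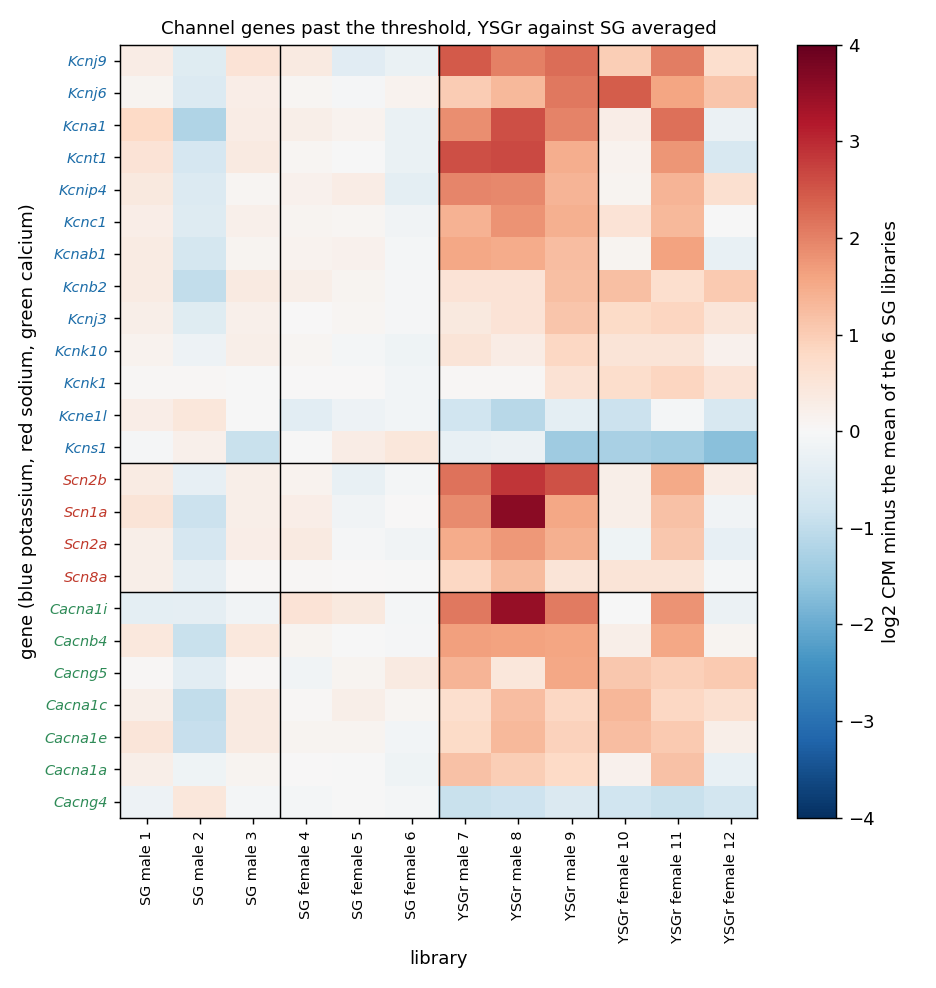
Of the channel genes that passed the threshold in the averaged comparison, 24 (rows) in the 12 libraries (columns), as log2 CPM minus the mean of the 6 SG libraries, on a scale from -4 (blue) to 4 (red). YSGr males and YSGr female 11 are higher than every SG library in all 21 of the drawn genes that rose, whereas YSGr females 10 and 12 are near SG in many of them.

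Among the 9 sodium channel genes, 5 rose and 0 fell, and the median log2 fold change was 0.87. That median is the value of Scn2a, which was 0.65 without YSGr female 11 and 0.67 without SG male 2 and YSGr male 8 together. Scn2b (chr9:45117782-45130070), a beta subunit that binds the pore covalently and promotes its delivery to the surface, stood at 3.83, 3.18 and 3.73 in SG males, 3.65, 3.20 and 3.41 in SG females, 5.68, 6.37 and 6.03 in YSGr males and 3.75, 5.01 and 3.79 in YSGr females. YSGr females 10 and 12 lay at the top of the SG range and the other YSGr libraries above it. The averaged rise was 1.61 (SE 0.22, adjusted p = 0.00083). Scn4b, the beta subunit linked to the resurgent current of Purkinje cells, spanned -0.19 (YSGr female 12) to 6.13 (YSGr male 8) in YSGr against 1.66 to 2.97 in SG, and did not pass (log2 fold change 1.31, SE 0.61, adjusted p = 0.18). Scn3b, the beta subunit of the embryonic brain, had a log2 fold change of 0.15 (adjusted p = 0.66).

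Of the 5 pore genes of sodium channels, 3 rose. Scn8a (chr15:100869858-101045938), the channel of mature axon initial segments, was at 6.10 to 6.69 in SG, at 7.27, 7.71 and 6.95 in YSGr males and at 6.98, 6.95 and 6.36 in YSGr females, a rise of 0.59 (SE 0.15, adjusted p = 0.025). Scn1a (chr2:66270778-66440840), a main channel of inhibitory neurons, was at 2.32 to 3.67 in SG, at 5.06, 6.77 and 4.72 in YSGr males and at 3.40, 4.34 and 3.04 in YSGr females, a rise of 1.38 (SE 0.35, adjusted p = 0.024). Scn2a (chr2:65620771-65767447), whose promoter window was shown, was at 4.06 to 5.09 in SG, at 6.23, 6.49 and 6.17 in YSGr males and at 4.57, 5.84 and 4.42 in YSGr females, a rise of 0.87 (SE 0.24, adjusted p = 0.034). In all 3, YSGr female 12 lay within the SG range. The fetal channel Scn3a did not pass, with a log2 fold change of 0.05 (adjusted p = 0.93), and neither did Scn7a, a glial and sensory channel, at -0.73 (adjusted p = 0.25). The 3 pore calls each missed the threshold when some libraries were left out: 6 for Scn8a (largest adjusted p 0.068, without YSGr female 10), 4 for Scn1a (0.062, without SG female 5) and 6 for Scn2a (0.090, without SG female 6). The sodium channel count of 5 was 2 without SG female 5 or SG female 6 (6.51% and 6.37% of all genes in those fits). It was 3 without SG male 2, YSGr male 8 or YSGr female 11 (13.1%, 9.89% and 10.3% of all genes).

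Among the 22 calcium channel genes, 6 rose and 1 fell, and the median log2 fold change was 0.37 (0.24 without SG male 2 and YSGr male 8 together). Of the 8 pore genes 4 rose. Cacna1c (chr6:118587240-119196418), the L-type channel that couples activity to transcription, was at 4.67, 3.46 and 4.80 in SG males, 4.49, 4.65 and 4.51 in SG females, 5.10, 5.66 and 5.27 in YSGr males and 5.76, 5.26 and 5.06 in YSGr females. Genotypes did not overlap and the rise was 0.92 (SE 0.22, adjusted p = 0.017). Cacna1i (chr15:80287238-80398279), a low-threshold T-type channel, was at 1.53 to 2.48 in SG, at 4.05, 5.42 and 4.01 in YSGr males and at 1.92, 3.74 and 1.68 in YSGr females. YSGr females 10 and 12 were within the SG range, and the averaged rise was 1.54 (SE 0.35, adjusted p = 0.013). Cacna1e, the R-type channel, rose by 0.92 (SE 0.23, adjusted p = 0.024), from 4.88 to 6.26 in SG to 6.03 to 7.10 in YSGr, with 5 libraries whose removal took it over the threshold (largest adjusted p 0.067, without SG female 6). Cacna1a, the P/Q-type channel of Purkinje and granule cell synapses, was at 5.67 to 6.10 in SG and 5.55 to 7.04 in YSGr and rose by 0.67 (adjusted p = 0.049), and it missed the threshold when any of 10 libraries was left out (largest adjusted p 0.12, without SG female 6). The N-type channel Cacna1b had a log2 fold change of 0.43 (adjusted p = 0.094).

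Of 14 auxiliary calcium channel genes, 2 rose and 1 fell. Cacnb4 (chr2:52428320-52676831), a cytoplasmic beta subunit that is prominent in the cerebellum, was at 3.73 to 5.05 in SG, at 6.27, 6.23 and 6.22 in YSGr males and at 4.85, 6.16 and 4.73 in YSGr females, a rise of 1.12 (SE 0.26, adjusted p = 0.017). Cacng5 (chr11:107874605-107915055), a gamma gene, was at 4.01 to 4.81 in SG, at 5.79, 4.89 and 5.98 in YSGr males and at 5.51, 5.39 and 5.48 in YSGr females, a rise of 1.07 (SE 0.18, adjusted p = 0.0024). Cacng4, a gamma gene nearby on chromosome 11 (chr11:107732357-107794557), went the opposite way. Cacng4 was at 7.09, 7.76 and 7.23 in SG males, 7.24, 7.29 and 7.22 in SG females, 6.41, 6.48 and 6.73 in YSGr males and 6.50, 6.43 and 6.58 in YSGr females. All YSGr libraries lay below all SG libraries, of which SG male 2 was apart from the rest, and the gene fell by 0.79 (SE 0.12, adjusted p = 0.0012), or by 0.69 without SG male 2 (adjusted p = 0.00041). The remaining 4 gamma genes and the 4 alpha2delta genes, which promote surface delivery of the pore, did not pass; Cacng2 (stargazin) had a log2 fold change of -0.20 (adjusted p = 0.28) and Cacna2d1 of 0.26 (adjusted p = 0.20).

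**Figure D3:**
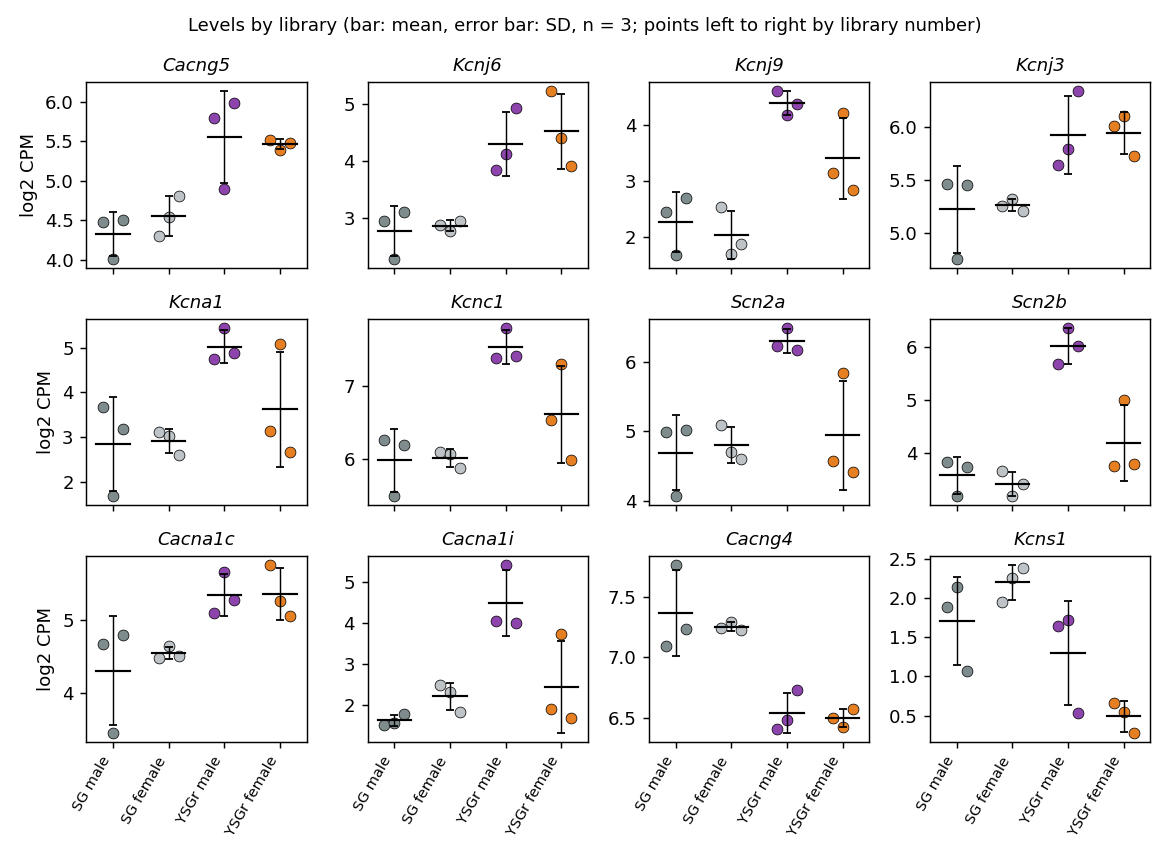
Log2 CPM of 12 channel genes in each library by group (points), with the mean (horizontal bar) and SD (n = 3); the vertical axes differ between panels and do not start at 0. Cacng5, Kcnj6, Kcnj9, Kcnj3 and Cacna1c separate the genotypes in both sexes and Cacng4 does so in the opposite direction, while for Kcna1, Scn2a, Scn2b and Cacna1i YSGr females 10 and 12 lie in or near the SG range.

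The 23 genes that rose differed in how many YSGr libraries carried the difference. As a description of genes chosen on this contrast, 8 lay above the highest SG library in all 6 YSGr libraries (Cacna1c, Cacng5, Kcnb2, Kcnj3, Kcnj6, Kcnj9 and Kcnk1 among them), 6 in 5 libraries (Cacna1e, Kcnc1, Kcnip4, Kcnk10 and Scn8a among them) and 9 in 4 libraries (Cacna1a, Cacna1i, Cacnb4, Kcna1, Kcnab1, Kcnt1, Scn1a, Scn2a and Scn2b). For those 9 the libraries were in every case the 3 YSGr males and YSGr female 11. Counted by library, all 23 exceeded the highest SG library in YSGr males 7, 8 and 9 and in YSGr female 11, 13 did in YSGr female 10 and 9 in YSGr female 12. The median difference from the SG mean over the 23 was 1.39, 1.47 and 1.41 for YSGr males 7, 8 and 9 and 0.53, 1.18 and 0.16 for YSGr females 10, 11 and 12. YSGr females 10 and 12 were also the lowest of all libraries in the mean of the Purkinje cell and interneuron markers (3.51 and 3.17), and YSGr female 11 was the highest of all in that of the granule neuron markers (7.68); their part in this split was not tested.

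**Figure D4:**
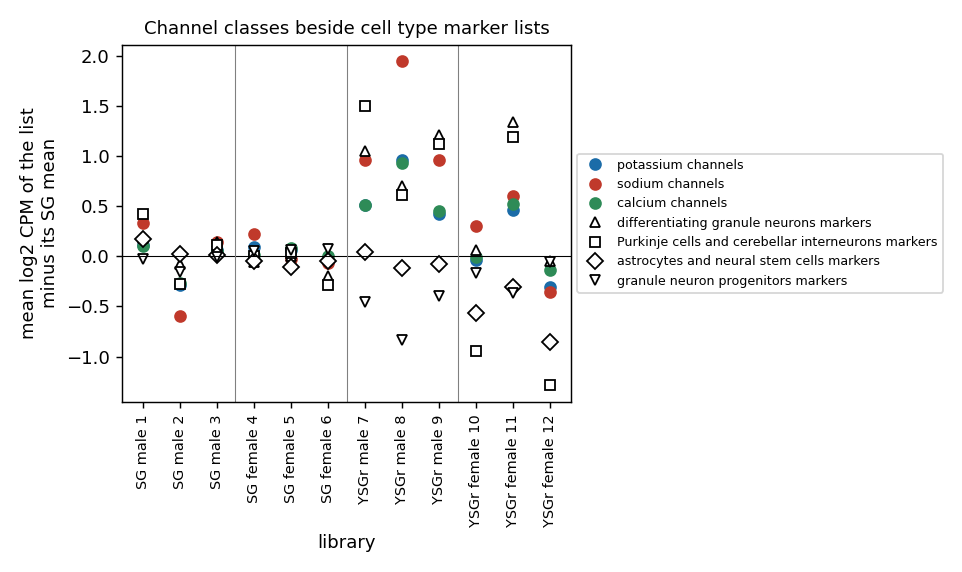
Mean log2 CPM of the potassium, sodium and calcium channel genes (filled circles) and of 4 cell type marker lists (open symbols) in each library, minus the mean of the SG libraries. YSGr males and YSGr female 11 lie above 0 for the 3 channel classes and both neuron lists, and YSGr female 12 lies below 0 for the 3 channel classes. These are means: in YSGr male 8, single markers of both neuron lists (Pcp2 and Cbln1 among them) were below every SG library.

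The comparison was repeated within each sex. In females, 5 of the 103 passed (4.85%), against 3.01% of all genes tested; 3 rose, with Kcnj6 and Kcnk1 among them (1.15% of all genes did), and Cacng4 and Kcns1 fell (1.87%). In males, 22 passed (21.4%), against 7.85% of all genes. Of these, 19 rose (4.43% of all genes did) and Cacng4, Kcne1l and Kcnip3 fell (3.42%). With 1 library left out, the male call of Kcnip3 held in 5 of 12 fits, that of Kcne1l in 8 and that of Cacng4 in 11. The median log2 fold change of the 103 was 0.003 in females and 0.66 in males (0.01 and -0.008 over all genes). The female median was -0.17 without YSGr female 11 and 0.19 without YSGr female 12, and the male median 0.33 without SG male 2 and YSGr male 8 together. At an unadjusted p under 0.05 there were 23 in females and 49 in males, that is 22.3% and 47.6% of the members against 15.1% and 29.9% of all genes. The fold changes of the 2 sexes come from different libraries, but 1 model with a shared estimate of spread tested both, so that a library of one sex can move the calls of the other. There were 3 members that passed in both sexes, Kcnj6 and Cacng4 among them. The female count was 0 without SG female 5, SG female 6 or YSGr female 10 (0.68%, 0.665% and 0.964% of all genes in those fits). It was 1 without SG female 4 (0.971%, against 1.18%) and 9 without SG male 2 (8.74%, against 5.56%). The male count was 6 (5.83%) without SG male 2 or YSGr male 8, against 2.49% and 2.03% of all genes in those fits. It was 14 (13.6%) without SG female 5 or YSGr male 7, against 3.58% and 5.83%, and 35 (34.0%, against 11.8%) without YSGr female 11. No female call held through every removal of a single library, and 4 of the male calls did (Cacna1i, Kcnc1, Kcnj9 and Scn2b).

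Kcnj6 and Cacng4 had effects of similar size in both sexes. Kcnj6 rose by 1.65 (SE 0.35, adjusted p = 0.023) in females and 1.53 (SE 0.35, adjusted p = 0.025) in males. For Cacng4 the log2 fold changes were -0.75 (SE 0.16, adjusted p = 0.026) and -0.82 (SE 0.16, adjusted p = 0.015). Without 1 library these missed the threshold: the largest adjusted p in females was 0.11 for Kcnj6 (without YSGr female 10) and 0.12 for Cacng4 (SG female 5), and in males 0.085 (SG male 2) and 0.052 (YSGr male 8). Kcnk1 rose by 0.72 (SE 0.15, adjusted p = 0.024) in females, where its level was 6.35 to 6.49 in SG and 7.00 to 7.31 in YSGr, and had a log2 fold change of 0.21 (adjusted p = 0.36) in males. Kcns1 fell by 1.71 (SE 0.37, adjusted p = 0.026) in females and had a log2 fold change of -0.40 (adjusted p = 0.48) in males.

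In males 5 of the 9 sodium channel genes rose and in females 0 did. Among the 5 in males, Scn2b rose by 2.45 (SE 0.32, adjusted p = 0.0018), Scn1a by 2.39 (SE 0.50, adjusted p = 0.019) and Scn2a by 1.60 (SE 0.34, adjusted p = 0.020). In females the same genes had log2 fold changes of 0.77, 0.37 and 0.14, with adjusted p of 0.26, 0.83 and 0.92. Cacna1i had the largest rise of any member in males, 2.86 (SE 0.49, adjusted p = 0.0086), against 0.23 (SE 0.49) in females. Kcna2, Kcnab3 (a Kv1 beta subunit) and the acid-sensitive K2P channel Kcnk9 passed in males and not in the averaged comparison, with rises of 1.88, 2.03 and 2.26 and adjusted p of 0.036, 0.037 and 0.048. Kcna2 was at 5.53, 4.17 and 5.44 in SG males, 5.35, 5.18 and 4.93 in SG females, 6.72, 7.52 and 6.53 in YSGr males and 4.80, 6.35 and 4.31 in YSGr females. Without YSGr male 8 the adjusted p of these 3 genes were 0.13, 0.11 and 0.18, and that of Scn2b, Scn1a and Scn2a over all removals reached 0.013, 0.071 and 0.072.

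Counted by separation alone, all 3 YSGr male libraries lay above all 3 SG male libraries for 48 of the 103 members (16.3% of all genes) and below them for 5 (18.0%). In females the counts were 19 above (14.0%) and 9 below (13.9%). The 9 lower in females, a smaller share than that of all genes, were Cacna1h, Cacng4, Kcnj2, Kcnn1, Kcnn3, Kcnn4, Kcnq1, Kcns1 and Scn7a. The SK and IK genes among them, Kcnn1, Kcnn3 and Kcnn4, did not pass in females by limma (adjusted p = 0.37, 0.077 and 0.23). Kcnn3 (an SK channel) was at 2.35, 2.01 and 2.36 in SG females and -0.44, 1.26 and -0.02 in YSGr females, and its log2 fold change was -1.97 (SE 0.55, adjusted p = 0.077), and in males 0.66 (adjusted p = 0.43).

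**Figure D5:**
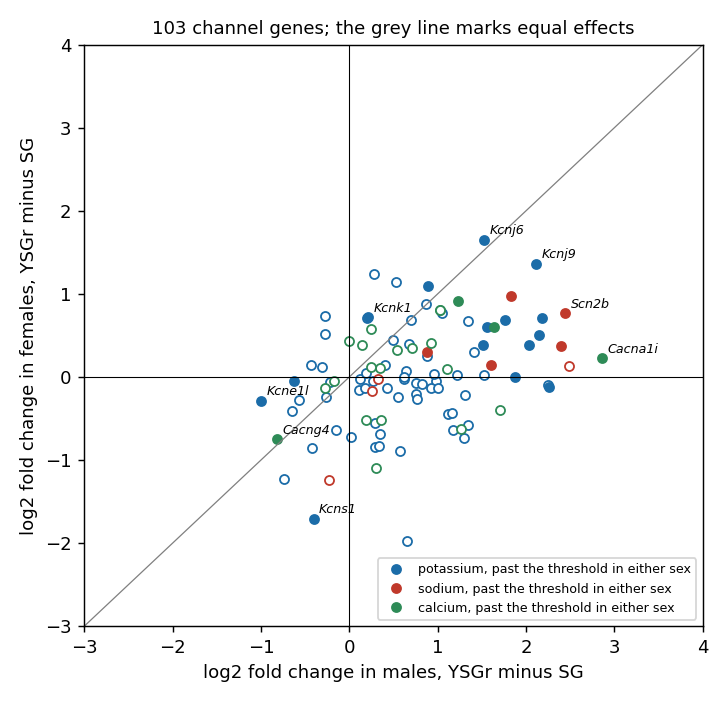
Log2 fold change of YSGr against SG in males (horizontal axis) and in females (vertical axis) for the 103 channel genes, with genes past the threshold in either sex filled. Of the points, 85 lie to the right of 0 and 80 below the grey line of equal effects, and Kcnj6 and Cacng4 lie near that line.

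Whether the effect differed between the sexes was tested directly. For 0 of the 103 did the female and male effects differ at an adjusted p of 0.05 by limma (0.00707% of all genes did), although 26 did at an unadjusted p under 0.05 (25.2%, against 11.6% of all genes). The difference, female minus male, had a median of -0.64 over the members and 0.005 over all genes, and 80 of the 103 lay below 0. Its largest values were -2.63 for Cacna1i (SE 0.69) and for Kcnn3 (SE 0.77), both with an adjusted p of 0.43. This result turns on YSGr female 11: without that library 7 members passed (6.80%, against 0.845% of all genes in the same fit), among them Cacna1i at -3.28, Cacna2d2 at -2.84, Kcnk12 at -2.42, Scn2b at -2.09, Kcnk3 at -2.01 and Scn2a at -1.91, with adjusted p of 0.028 to 0.043. With libraries weighted by their fit 23 did (22.3%, against 4.77% of all genes). In that fit YSGr female 10 weighed 3.33, YSGr female 11 0.27 and YSGr female 12 0.42. Its YSGr female level therefore rests mostly on library 10, with library 11 again nearly left out. In the fit of all libraries Kcnj6 differed by 0.12 (SE 0.49, adjusted p = 0.92) and Cacng4 by 0.07 (SE 0.23, adjusted p = 0.90).

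Females were also compared with males within each genotype. In SG 0 of the 103 passed by limma (0.0353% of all genes did), with 1 at an unadjusted p under 0.05 (against 1.83% of all genes). In YSGr 0 passed (0.0778% of all genes did), with 43 at an unadjusted p under 0.05 (41.7%, against 18.1% of all genes), and the median difference, female minus male, was -0.43. Scn2b came nearest, with a difference of -1.84 (SE 0.32, adjusted p = 0.060). With all libraries, 0.0565% of all genes were called lower in females. Without YSGr female 11, 36 members passed (35.0%, against 7.28% of all genes in the same fit), 1 higher in females and 35 lower (34.0%, against 6.00% of all genes).

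Other genes of excitability were taken from 5 lists. Of 84 such genes, 15 passed in the averaged comparison (17.9%, against 11.4% of all genes), 12 higher and 3 lower. The count was 9 without SG female 6 (10.7%, against 6.37% in the same fit) and 26 without YSGr female 12 (31.0%, against 14.8%). Of 11 genes of HCN, sodium leak, proton and endolysosomal channels 2 rose, Unc80 by 1.13 and Unc79 by 0.62, both partners of the sodium leak channel. Of 31 channel partner and anchor genes 7 rose and 0 fell; they included Lgi2, a secreted synaptic protein, at 1.81 (SE 0.32, adjusted p = 0.0032), Sptbn4, the spectrin of the axon initial segment, at 1.23 (SE 0.24, adjusted p = 0.0063) and Rims1, which ties calcium channels to release sites, at 1.06 (adjusted p = 0.027). Of 9 Rest complex genes Rest itself fell by 0.68 (SE 0.19, adjusted p = 0.040), with -1.27 in females and -0.10 in males. Of 17 genes of calcium release and calcium pumps 2 rose, the plasma membrane pump Atp2b3 by 1.56 and Orai2 by 0.64. Of 16 sodium pump and cation-chloride cotransporter genes, Fxyd5 rose by 0.90, and the potassium-chloride cotransporters Slc12a7 and Slc12a4 fell by 1.06 and 0.58.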

How the data were processed

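Libraries of total RNA from tumour tissue, 12 in all, were read on a BGISEQ-500, per the labels' protocols. The authors deposited 1 table of log2 CPM per gene and library; its lowest value, -2.24 in every library, is that of a gene with no reads after a prior count. Bowtie2, RSEM 1.2.12, Trimmomatic 0.33, edgeR 3.30.3 and Picard 1.95, with build mm10, are listed in the submitters' processing notes; what each did, the annotation and the use of strand are not given in the sources used. Estimated reads came from the step between values; 92.5 to 93.9% of genes were whole within 0.02 reads, so no count model was run, and 3 reads in a library correspond to 0.301 to 0.333 CPM.

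The deposited log2 values were fitted with limma 3.58.1 (R 4.3.3) on the 14147 genes above 0 log2 CPM in at least 3 libraries, with 1 coefficient per genotype and sex, an eBayes trend and two-sided Benjamini-Hochberg adjusted p. The script was tested on simulated data. Fold changes include the prior count and understate changes of low genes. The averaged comparison shares its libraries with those of each sex. Coordinates and exon lengths are from GENCODE M21 (mm10). Named genes were 36 fixed genes, the 12 largest changes in each direction past the threshold per comparison, any member whose effect differed between the sexes, and up to 3 genes past the threshold per further list; the other members named in describing a family, a separation or an alternative, and those under the filter, were chosen after their values were seen. Some members are counted but not reported singly here. The members and lists were chosen with earlier results of these data known. Of the other marker lists, 6 of 9 macrophage and 6 of 6 neutrophil markers rose; of 12 oligodendrocyte markers 0 rose and 3 fell, of 10 microglia markers 0 and 1, of 10 endothelial markers 1 and 4, of 10 pericyte markers 0 and 3, of 7 markers of forebrain and other neurons 2 and 1, of 1 muscle marker 0 and 1, and of 1 T cell marker none passed. Alternatives changed the filter, pseudocount (1 CPM), scaling, library weights, eBayes trend, the model terms and the libraries left out.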

Additional observations from a re-analysis of the deposited data

Results flagged for a closer look

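Among the named channel genes, 92 genotype groups of 6 libraries (both sexes together) were examined for a library set apart from the rest. The gap to the nearest other library, as a share of the range, had to exceed Dixon's 95% critical value. Chance gives about 1 in 20 for independent values of 1 population, whereas these genes share libraries and the groups hold both sexes. There were 12 such cases, and SG male 2 was the library apart in 9 of them. SG male 2 was low against the other SG libraries for Cacna1c (3.46 log2 CPM, others from 4.49), Cacnb4 (3.73, others from 4.59), Kcnd3 (3.96, others from 5.20), Kcnma1 (4.29, others from 5.15), Kcnq3 (3.90, others from 4.97), Scn3a (2.61, others from 3.66) and Scn3b (4.08, others from 4.77). It was high for Cacng4 (7.76, others to 7.29) and Kcnip3 (7.59, others to 7.22). SG female 6 was apart for Kcnab3 (2.64, others to 2.24) and Kcnk1 (6.35, others from 6.46), and YSGr male 8 for Kcnq3 (5.96, other YSGr libraries to 5.19). Without SG male 2, Cacna1c, Cacnb4 and Cacng4 still passed in the averaged comparison. In the comparison within males, Cacng4 still passed without that library, whereas Cacnb4 and Kcnip3 did not.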

How the results depend on the processing

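No paired analysis was possible because the groups share no replicate numbers. The count in the averaged comparison was 19 to 27 under 7 other filters, pseudocounts, scalings and models, and 13 to 34 with 1 library left out. It was 48 with library weights (46.6%, against 35.2% of all genes), in which SG male 2 weighed 0.10 and YSGr female 10 weighed 3.33. In females the count was 42 with library weights (40.8%, against 31.7% of all genes) and 14 without SG male 2 and YSGr male 8 (13.6%, against 9.04%). With 1 library left out it was 0 to 9 (0.665% to 5.56% of all genes). In males it was 4 without SG male 2 and YSGr male 8 (3.88%, against 1.75% of all genes). With 1 library left out it was 6 to 35 (2.03% to 11.8% of all genes). The difference between the sexes' effects gave 23 calls with library weights (22.3%, against 4.77% of all genes) and 0 to 7 with 1 library left out. Females against males in YSGr gave 38 with weights (36.9%, against 12.9% of all genes) and 0 to 36 with 1 library left out. The other excitability genes gave 46 in the averaged comparison with weights (54.8%, against 35.2% of all genes) and 9 to 26 with 1 library left out. Of 1197 gene values, 1051 kept direction and side of the threshold, 104 lost the call, 26 gained it and 16, of 6 genes without a call, changed sign. Those were Cacna1h (0.010 without YSGr male 9, the highest with 1 library left out; lowest -0.43), Kcnd2 (-0.044 with weights), Kcnh7 (-0.22 with weights, -0.022 without SG male 2 or YSGr female 12, up to 0.22 with 1 library left out, and -0.043 without SG male 2 and YSGr male 8), Kcnq3 (-0.063 without both), Scn3a (-0.018 with quantile normalization, -0.18 with weights, -0.20 without SG male 2, -0.15 without YSGr male 8, -0.051 without YSGr female 10, up to 0.20 with 1 library left out, and -0.40 without both males) and Scn3b (-0.026 with weights, -0.024 without YSGr male 8, up to 0.28 with 1 library left out, and -0.15 without both males). The cause was not tested. The depth limits members such as Kcne2, with 105 reads over 12 libraries.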
